A study of Danio rerio with 6 samples.

Results

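The BCL2 family members examined in IRF4-driven zebrafish tumors were mcl1a, mcl1b, bcl2a, bcl2l1 and bcl2l10, which protect cells, and baxa, bcl2l11, bbc3 and pmaip1, which promote their death. They were chosen as the rows of the 2 deposited gene tables that carry one of these 9 names, which gave 10 of 31901 rows, because baxa stood on 2 rows. All 10 rows passed the filter on low counts and were among the 14102 genes tested. The members had been chosen with earlier results of these data known, so their counts are descriptions of these genes and not of a random draw.

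Total RNA was sequenced from 3 groups of 2 libraries. The lck-IRF4;p53+/- and lck-IRF4 libraries came from tumors of fish in which the zebrafish lck promoter drives human IRF4 and the fluorescent marker mCherry. The study found this promoter active in normal T cells and B cells. The lck-IRF4;p53+/- group also carries 1 mutant p53 allele that lost transactivation. The lck-mCherry libraries came from normal thymus of fish that carry mCherry alone, so that all 3 groups share the promoter and the marker. Tumor cells were harvested once lymphoma had appeared and were sorted on mCherry, and the labels do not say whether the thymus cells were sorted. The tumors for RNA-seq were taken from lck:IRF4 fish at 10 months of age, and the ages of the other fish of these libraries were not given in the sources used here. Whether the 2 libraries of a group came from separate fish was not given either, so p-values measure the spread between these libraries. That spread was far above counting error. The chi-square per gene between the 2 libraries was 69.2 in lck-IRF4;p53+/-, 50.0 in lck-IRF4 and 113 in lck-mCherry. For example, psmb8a had 0 counts in lck-IRF4 replicate 1 and 5324 in replicate 2. The related genes psmb13a (0 and 2963) and psmb9a (4 and 2609) were split in the same way. The source of the spread was not tested. In bulk RNA, fewer cells of a type and less RNA per cell cannot be told apart.

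BCL2 family proteins decide whether the outer membrane of mitochondria is opened, which releases cytochrome c and starts the caspase cascade. Pro-survival members bind and hold back the pore-forming effectors, of which Bax is one, while BH3-only members neutralise the pro-survival proteins or activate the effectors directly. In the mammalian thymus this balance decides which developing T cells die during selection, with Bim as a main killer and Mcl-1, Bcl-2 and Bcl-xL as guardians of successive stages, and Puma and Noxa are classical targets of p53.

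Recovered gene counts summed to between 5788245 and 7647775 a library, and the deposited transcript counts to between 10138258 and 12655373. Normalised read counts below are counts scaled to the mean effective library size, so they can be set side by side between libraries for 1 gene, but they are not divided by transcript length, and levels are not compared between genes. T-cell genes were measured in all groups: zap70, a kinase of T-cell receptor signalling, had 8584 and 11216 normalised counts in lck-IRF4;p53+/-, 12585 and 12052 in lck-IRF4 and 9798 and 15326 in lck-mCherry. Another of the T-cell markers, rag2, was higher in every tumor library. It had 4722 and 10407 normalised counts in lck-IRF4;p53+/- and 4091 and 7922 in lck-IRF4, against 2047 and 2396 in lck-mCherry. rag1, on the same list, had 55.3 and 155 in lck-IRF4;p53+/- and 55.2 and 224 in lck-IRF4, against 245 and 86.1 in lck-mCherry. Its tumor libraries thus overlapped the thymus, as did those of il7r. The genes of the CD4 and CD8 coreceptors went the other way from rag2 and were lower in every tumor library. cd8b had 64.5 and 24.4 normalised counts in lck-IRF4;p53+/-, 92.8 and 58.5 in lck-IRF4 and 1832 and 1154 in lck-mCherry, and cd8a and cd4-1 had no tumor library within the range of the thymus libraries. Of the 5 granulocyte markers, mpx and npsn reached up to 11.7 and 89.4 normalised counts in tumor libraries and stood at 0 in both lck-mCherry libraries, and cpa5 and lyz were also higher in every tumor library. The most abundant of the 5, srgn, went the other way, so that their sum was 4057 to 6306 in lck-IRF4;p53+/-, 3737 to 6221 in lck-IRF4 and 8800 to 10707 in lck-mCherry. Summed erythrocyte markers ranged from 1086 to 9087 in lck-IRF4;p53+/-, from 6477 to 6998 in lck-IRF4 and from 1725 to 3917 in lck-mCherry. The part of these differences in the values of the BCL2 family was not tested.

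Tumors were compared with thymus to ask whether survival and death genes differ between them. Tumor and thymus also differ in tissue and in the levels of CD4 and CD8 genes. The age of the thymus fish and the sorting of the thymus cells were not given. An effect of the lymphoma cannot be told apart from these. In lck-IRF4;p53+/- tumors the pro-survival genes mcl1a, bcl2a, bcl2l1 and bcl2l10 and the BH3-only gene bbc3 stood below both thymus libraries, at 11.8% to 31.6% of the thymus mean, and the effector baxa at 63.5%. In lck-IRF4 tumors mcl1a, bcl2a and bcl2l10 stood below both thymus libraries, at 21.9% to 30.0% of the thymus mean. So did bbc3 at 67.6% and both rows of baxa at 47.4% and 65.9%. Of all 14102 genes tested, 22.7% had both lck-IRF4;p53+/- libraries below both thymus libraries, and 21.2% had both lck-IRF4 libraries below them. mcl1b, the second mcl1 gene of zebrafish, was the only one of the 10 rows whose fitted difference from thymus was above 0 in both tumor groups. With edgeR's quasi-likelihood test none of the 10 rows passed an adjusted p of 0.05 in either comparison with thymus, where 2.46% of all genes passed in lck-IRF4;p53+/- and 0.979% in lck-IRF4. DESeq2's Wald test passed 4 rows in lck-IRF4;p53+/- and 2 in lck-IRF4, where it passed 9.89% and 9.62% of all genes.

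**Figure D1:**
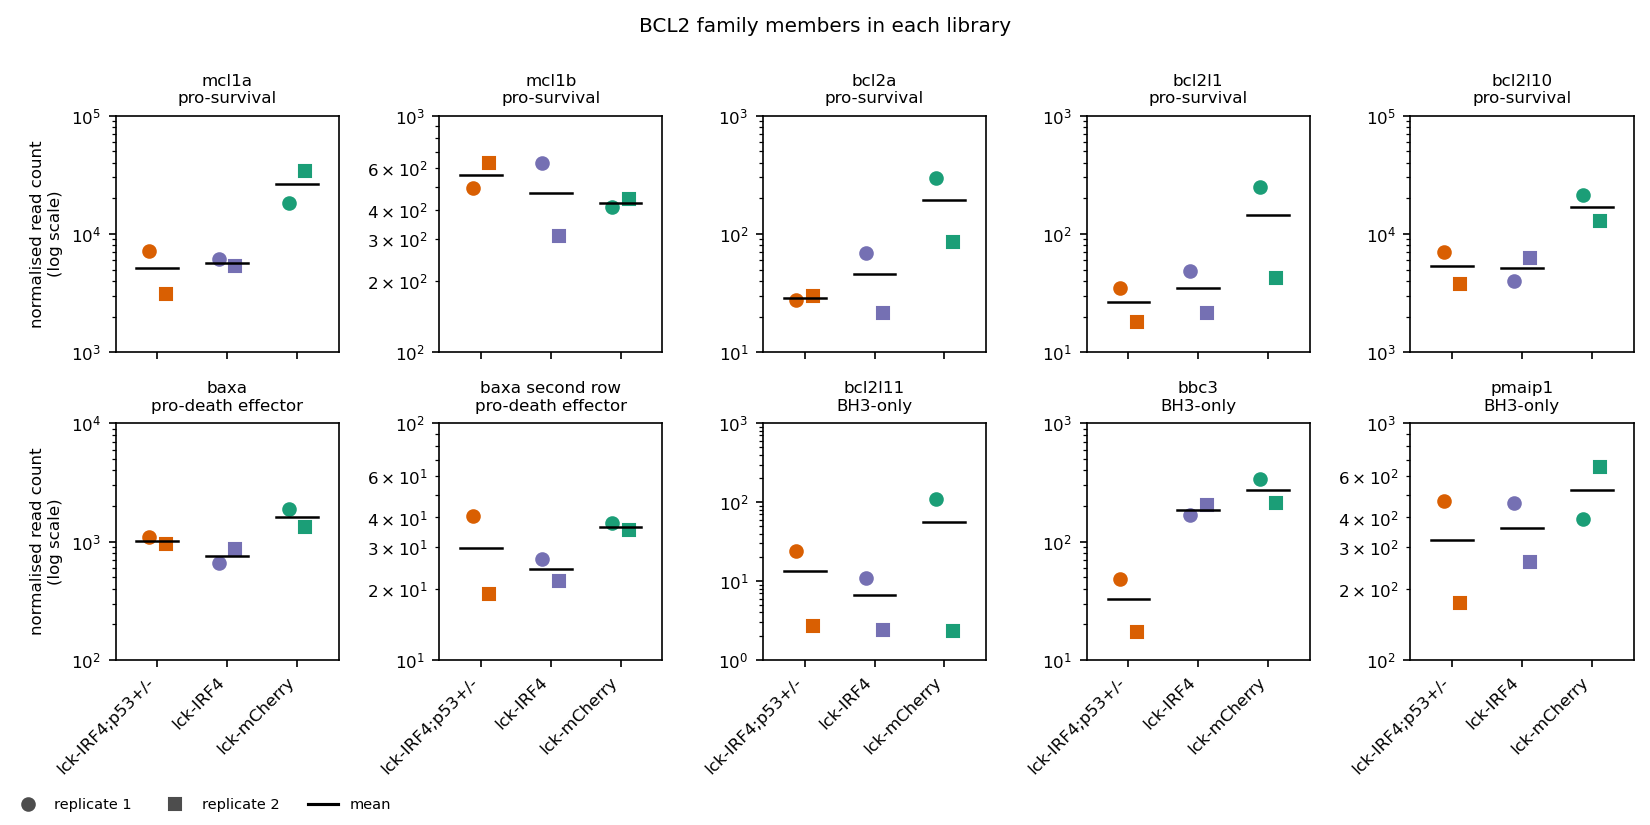
Normalised read counts on a log scale of the 10 BCL2 family rows in each library, 1 panel a row, with replicate 1 as circles, replicate 2 as squares and the mean of each group as a black line. mcl1a and bcl2l10 have all 4 tumor libraries below both thymus libraries, bbc3 is lowest in both lck-IRF4;p53+/- libraries, and bcl2l11 is high in lck-mCherry replicate 1 only.

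mcl1a, an orthologue of the short-lived survival protein Mcl-1, had 7214 and 3095 normalised counts in lck-IRF4;p53+/- and 6151 and 5305 in lck-IRF4, against 18336 and 34028 in lck-mCherry. All 4 tumor libraries lay well under the lower thymus library, and the tumor groups overlapped each other. The log2 fold change was -2.34 (SE 0.52, 95% interval -3.56 to -1.13) in lck-IRF4;p53+/- and -2.19 (SE 0.52, -3.40 to -0.98) in lck-IRF4. The adjusted p was 0.0653 and 0.0935 by edgeR and 0.000965 and 0.00279 by DESeq2 for these 2 comparisons. Leaving out a library of lck-IRF4;p53+/-, which is not part of the lck-IRF4 comparison but of the pooled spread, brought edgeR's adjusted p for lck-IRF4 to 0.0366 (without replicate 1) and 0.0430 (without replicate 2), and without lck-IRF4;p53+/- replicate 1 the adjusted p of that group's own comparison was 0.0393. Over all alternatives it lay between 0.000259 and 0.256 in lck-IRF4;p53+/- and between 0.000546 and 0.292 in lck-IRF4.

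bcl2l10, a pro-survival member also called nrz in zebrafish, had 7002 and 3761 normalised counts in lck-IRF4;p53+/- and 3967 and 6247 in lck-IRF4, against 21133 and 12877 in lck-mCherry. As for mcl1a, no tumor library reached the range of the thymus. Its log2 fold change was -1.66 (SE 0.47) in lck-IRF4;p53+/- and -1.74 (SE 0.47) in lck-IRF4, with an adjusted p of 0.118 and 0.120 by edgeR and of 0.0224 and 0.0154 by DESeq2. Its range over all alternatives was 0.0115 to 0.470 and 0.00691 to 0.486. The mean over both libraries was 5382 ± 2292 in lck-IRF4;p53+/-, 5107 ± 1612 in lck-IRF4 and 17005 ± 5838 in lck-mCherry (SD, n = 2 each).

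bcl2a, an orthologue of BCL2, had 27.6 and 29.8 normalised counts in lck-IRF4;p53+/- and 69.4 and 21.5 in lck-IRF4, against 299 and 84.9 in lck-mCherry. Neither tumor group overlapped the thymus, while the tumor groups overlapped each other, and lck-mCherry replicate 1 alone held most of the thymus signal. Fitted log2 fold changes were -2.74 (SE 0.85) in lck-IRF4;p53+/- and -2.07 (SE 0.83) in lck-IRF4 (edgeR adjusted p 0.138 and 0.239, DESeq2 adjusted p 0.0201 and 0.110). Over all alternatives the adjusted p was 0.0108 to 0.425 and 0.0934 to 0.589. Without lck-mCherry replicate 1 the fitted values were -1.56 and -0.92.

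bcl2l1, the orthologue of Bcl-xL, had 35.0 and 18.1 normalised counts in lck-IRF4;p53+/- and 48.5 and 21.5 in lck-IRF4, against 249 and 42.5 in lck-mCherry. Here replicate 1 of lck-IRF4 lay above the lower thymus library, so that only the lck-IRF4;p53+/- libraries stood clear of the thymus. The log2 fold change of -2.45 (SE 0.95) in lck-IRF4;p53+/- and of -2.05 (SE 0.94) in lck-IRF4 passed no adjusted threshold (edgeR adjusted p 0.214 and 0.297, DESeq2 adjusted p 0.0823 and 0.176). Without lck-mCherry replicate 1 the values were -0.68 and -0.30.

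mcl1b differed from the other pro-survival genes in that its mean was not below the thymus mean in either tumor group. It had 496 and 628 normalised counts in lck-IRF4;p53+/- and 631 and 309 in lck-IRF4, against 411 and 445 in lck-mCherry. Both lck-IRF4;p53+/- libraries were above both thymus libraries, while the lck-IRF4 libraries stood on either side of them. The log2 fold change was 0.39 (95% interval -0.64 to 1.43) and 0.14 (-0.90 to 1.17), with edgeR adjusted p 0.672 and 0.914. These intervals exclude a fall of the size fitted for mcl1a, although the difference between the 2 genes was not tested.

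**Figure D2:**
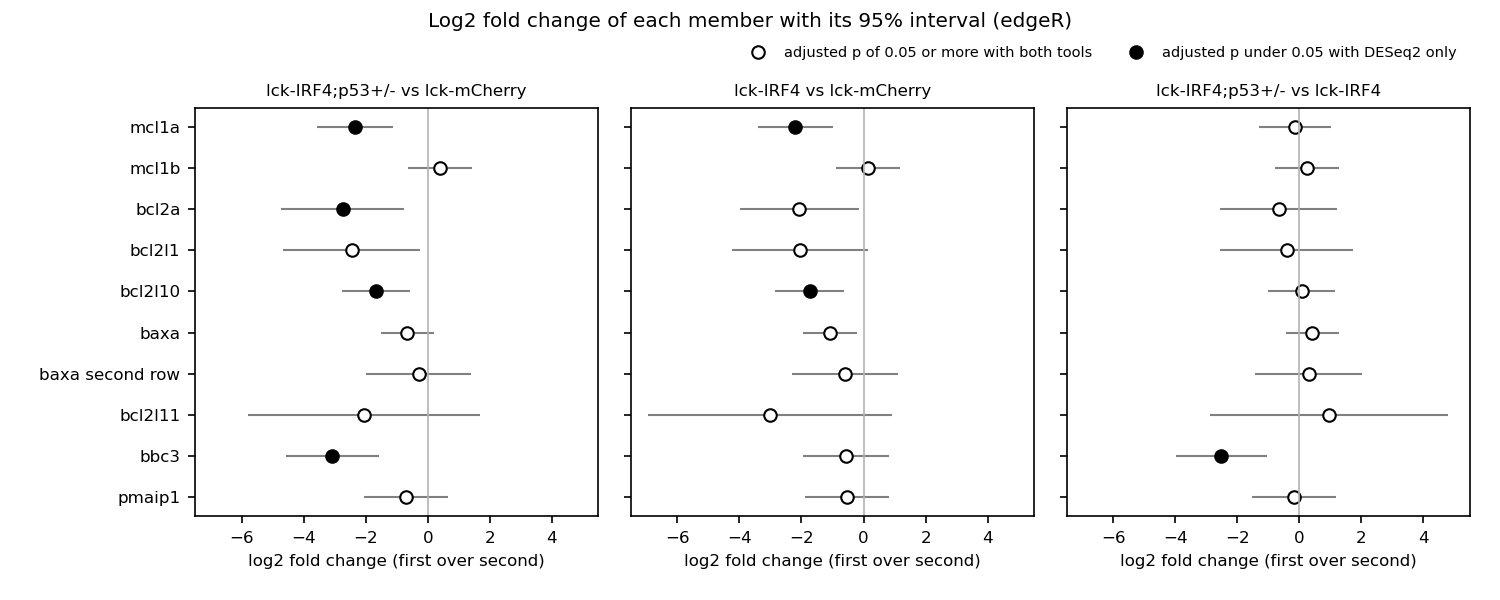
Log2 fold change (first group over second) of the 10 rows in 3 comparisons with its 95% interval from edgeR. Filled points passed an adjusted p of 0.05 with DESeq2 but not with edgeR, and they are mcl1a, bcl2a, bcl2l10 and bbc3 in lck-IRF4;p53+/- against lck-mCherry, mcl1a and bcl2l10 in lck-IRF4 against lck-mCherry, and bbc3 between the tumor groups.

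The effector baxa is an orthologue of Bax. It had 1085 and 953 normalised counts in lck-IRF4;p53+/- and 659 and 862 in lck-IRF4, against 1893 and 1317 in lck-mCherry. All 4 tumor libraries were below both thymus libraries, by less than for mcl1a or bcl2l10. The fitted difference on the log2 scale was -0.66 (SE 0.37) in lck-IRF4;p53+/- and -1.08 (SE 0.37) in lck-IRF4, with an adjusted p of 0.377 and 0.183 by edgeR and of 0.407 and 0.0936 by DESeq2. The second row named baxa, ENSDARG00000089129, whose identifier the current name table does not hold, had 40.5 and 19.0 normalised counts in lck-IRF4;p53+/- and 26.7 and 21.5 in lck-IRF4, against 37.8 and 35.4 in lck-mCherry. Reads of 2 rows with the same name may have been split by the counting, so this row is uncertain. It passed no test in any comparison.

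Of the BH3-only genes, bbc3, the orthologue of Puma, separated the tumor groups. It had 47.9 and 17.2 normalised counts in lck-IRF4;p53+/- and 166 and 205 in lck-IRF4, against 338 and 211 in lck-mCherry. The lck-IRF4;p53+/- libraries lay far below the other 4, and the higher lck-IRF4 library came close to the lower thymus library. Against thymus the log2 fold change was -3.07 (SE 0.65, 95% interval -4.58 to -1.56) in lck-IRF4;p53+/- and -0.56 (SE 0.60, -1.95 to 0.82) in lck-IRF4. The adjusted p was 0.0567 and 0.689 by edgeR and 0.000103 and 0.712 by DESeq2, and over all alternatives 0.000103 to 0.239 and 0.491 to 0.955.

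pmaip1, the orthologue of Noxa, which binds Mcl-1, had 469 and 173 normalised counts in lck-IRF4;p53+/- and 460 and 260 in lck-IRF4, against 394 and 654 in lck-mCherry. The 3 groups overlapped. On the log2 scale the differences were -0.71 (95% interval -2.06 to 0.65) and -0.54 (-1.89 to 0.81), with edgeR adjusted p 0.546 and 0.695.

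bcl2l11, the orthologue of Bim, had 26 and 3 recovered counts in lck-IRF4;p53+/- and 13 and 2 in lck-IRF4, against 101 and 2 in lck-mCherry. Replicate 2 of each group was thus at or under 3 counts, and the thymus mean rested on replicate 1. The fitted log2 fold change of -2.06 (SE 1.61) in lck-IRF4;p53+/- and -3.01 (SE 1.69) in lck-IRF4 turned to 2.44 and 1.45 without lck-mCherry replicate 1, and no direction can be read from it (edgeR adjusted p 0.525 and 0.399 with all libraries).

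**Figure D3:**
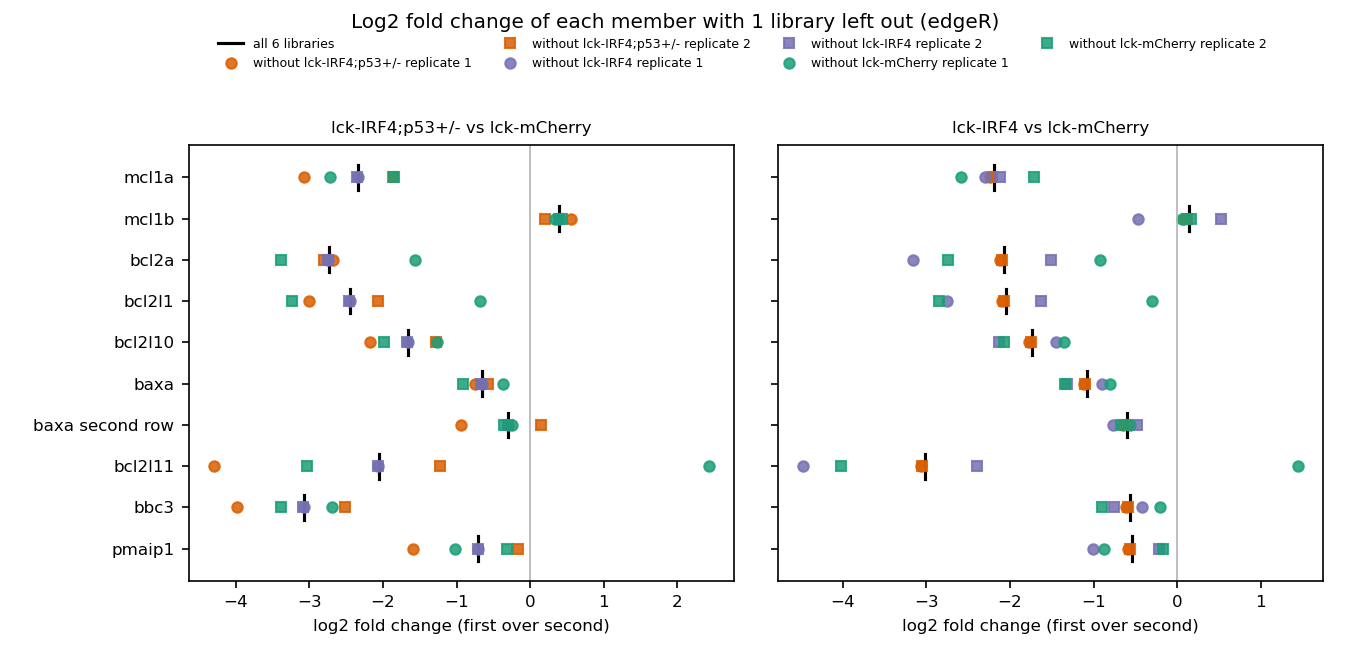
Log2 fold change of the 10 rows against lck-mCherry with all 6 libraries (black line) and with each library left out in turn (points, coloured by group, circles for replicate 1 and squares for replicate 2). bcl2l11 passes from -2.06 to 2.44 in lck-IRF4;p53+/- and from -3.01 to 1.45 in lck-IRF4 when lck-mCherry replicate 1 is left out, while mcl1a stays between -3.08 and -1.85 in lck-IRF4;p53+/- and between -2.59 and -1.71 in lck-IRF4.

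Counted as a group, 9 of the 10 rows had a fitted log2 fold change below 0 against thymus in each tumor group. The exception was mcl1b. The 9 include 2 rows of baxa, of which the second is uncertain, and they include bcl2l11 only with lck-mCherry replicate 1. Without lck-IRF4;p53+/- replicate 2 the second baxa row stood at 0.14 in that group. Without lck-IRF4 replicate 1 mcl1b stood at -0.47 in lck-IRF4. The median of the 5 pro-survival genes was -2.34 in lck-IRF4;p53+/- and -2.05 in lck-IRF4, and that of the 2 baxa rows -0.48 and -0.84. The -2.05 is the value of bcl2l1, which overlapped the thymus in lck-IRF4 and was -0.30 without lck-mCherry replicate 1. For the 3 BH3-only genes the median in lck-IRF4 was -0.56, the value of bbc3. Their median in lck-IRF4;p53+/- was -2.06, the value of bcl2l11, which turned sign without lck-mCherry replicate 1, so no direction can be read from it. Over all 14102 genes tested the median was 0.02 and 0.03. Both lck-IRF4;p53+/- libraries were below both thymus libraries in 6 rows (22.7% of all genes tested) and above them in 1 row (27.3%). Both lck-IRF4 libraries were below both thymus libraries in 6 rows (21.2%) and above them in 0 (25.7%).

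edgeR's test called 0 of the 10 rows in lck-IRF4;p53+/- against thymus, where 2.46% of all genes were called, and 5 rows had an unadjusted p under 0.05 (19.7% of all genes). In lck-IRF4 it called 0 rows against 0.979% of all genes, with 4 rows under an unadjusted p of 0.05 (18.5% of all genes). DESeq2 called mcl1a, bcl2a, bcl2l10 and bbc3 lower in lck-IRF4;p53+/-, 4 rows where it called 9.89% of all genes. It called mcl1a and bcl2l10 lower in lck-IRF4, 2 rows where it called 9.62% of all genes. edgeR without the filter on low counts called the same 4 and 2 rows. The calls of mcl1a, bcl2l10, bcl2a and bbc3 therefore depended on the filter and on the test. Both comparisons use the same lck-mCherry libraries.

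The tumor groups, whose labels differ by the p53 mutation, were also compared with each other. Some summed cell type markers did not overlap between them, and the age of the lck-IRF4;p53+/- fish was not given. An effect of the mutation cannot be told apart from these. bbc3 was the row that differed most between the tumor groups, with lck-IRF4;p53+/- at 17.5% of the lck-IRF4 mean. The log2 fold change was -2.51 (SE 0.64, 95% interval -3.99 to -1.03, unadjusted p 0.00468). The adjusted p was 0.326 by edgeR, 0.0103 by DESeq2 and 0.0363 by edgeR without the filter on low counts. Over all alternatives it was 0.0103 to 0.812. Left out in turn, the 6 libraries gave values between -3.38 and -1.94.

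No other pro-death row had a fitted fall of the size of bbc3 in this comparison, and the difference between these genes and bbc3 was not tested. bcl2l11 had 0.96 (95% interval -2.87 to 4.78), an interval that includes the value of bbc3. It rested on 26 and 3 recovered counts in lck-IRF4;p53+/- and 13 and 2 in lck-IRF4, so no direction can be read from it. In baxa both libraries with the p53 mutation exceeded the ones without it, at a log2 fold change of 0.42 (95% interval -0.43 to 1.28), and pmaip1 overlapped, at -0.17 (-1.52 to 1.19). Among the pro-survival genes mcl1a had -0.15 (-1.31 to 1.01), bcl2l10 0.08 (-0.998 to 1.15) and mcl1b 0.26 (-0.78 to 1.29), and all 5 overlapped between the tumor groups. The lck-IRF4;p53+/- libraries were both below in 1 of the 10 rows (20.7% of all genes) and both above in 1 (18.1%). edgeR called 0 of 10 rows, against 0.00709% of all genes (1 gene), and 1 row had an unadjusted p under 0.05 (6.86% of all genes). DESeq2 called 1 row, against 1.95% of all genes.

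A ratio of 2 members within a library does not depend on how libraries are scaled to each other. These pairs were picked after the values had been seen and carry no test. For every 100 counts of mcl1a there were 6.87 and 20.3 counts of mcl1b in lck-IRF4;p53+/- and 10.3 and 5.83 in lck-IRF4, against 2.24 and 1.31 in lck-mCherry. All 4 tumor libraries exceeded both thymus libraries, so that the paralogues stood in another proportion in tumors. For pmaip1 the values per 100 mcl1a counts were 6.50 and 5.60 in lck-IRF4;p53+/- and 7.47 and 4.90 in lck-IRF4, against 2.15 and 1.92 in lck-mCherry, again without overlap between tumor and thymus. Both ratios have mcl1a as their base, which was itself lower in every tumor library, so they are not independent of its values. bcl2l10 per 100 mcl1a counts overlapped, at 97.1 and 122 in lck-IRF4;p53+/-, 64.5 and 118 in lck-IRF4 and 115 and 37.8 in lck-mCherry.

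bbc3 gave another picture. For every 100 counts of mcl1a there were 0.664 and 0.554 counts of bbc3 in lck-IRF4;p53+/- and 2.70 and 3.87 in lck-IRF4, against 1.84 and 0.621 in lck-mCherry. The lck-IRF4 libraries were the highest, and the lck-IRF4;p53+/- libraries lay within or just under the thymus range. Set against pmaip1, the other p53-linked BH3-only gene, bbc3 had 10.2 and 9.90 counts per 100 in lck-IRF4;p53+/-, against 36.2 and 78.9 in lck-IRF4 and 85.8 and 32.3 in lck-mCherry.

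**Figure D4:**
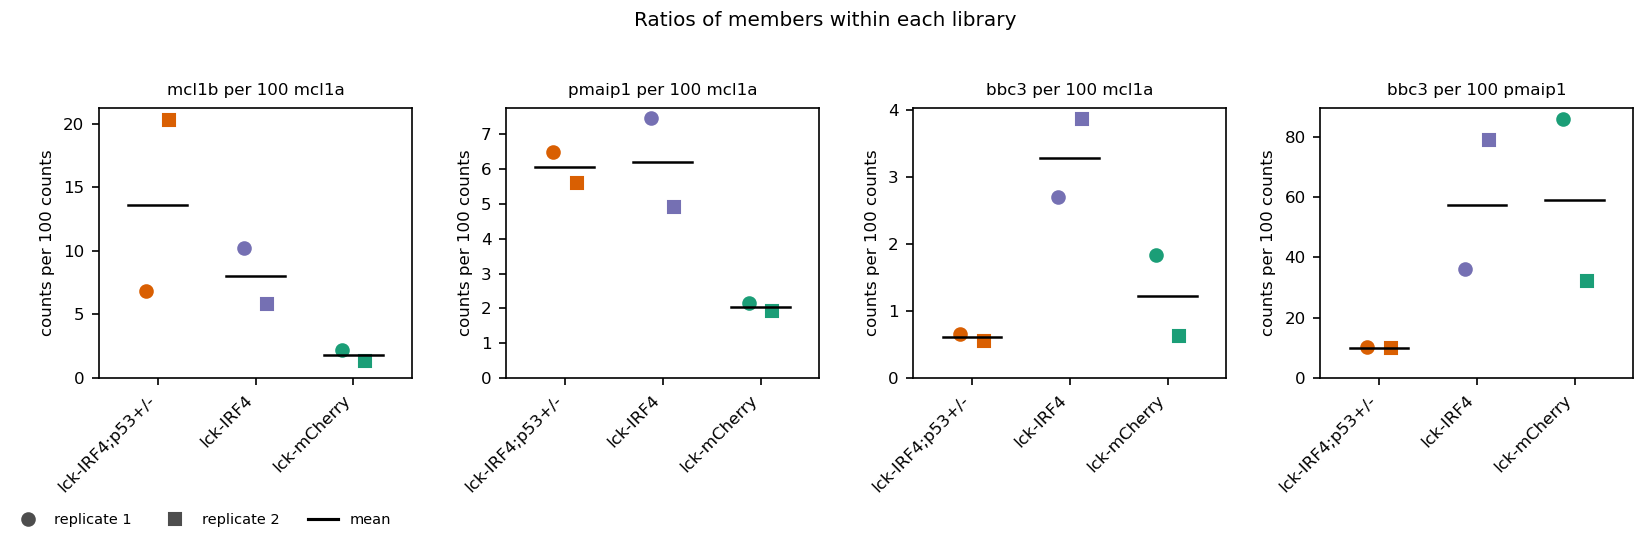
Counts of 1 member per 100 counts of another within each library, on linear axes from 0, with replicate 1 as circles, replicate 2 as squares and the group mean as a black line. mcl1b and pmaip1 per 100 mcl1a are higher in all 4 tumor libraries than in both thymus libraries, and bbc3 per 100 pmaip1 is near 10 in both lck-IRF4;p53+/- libraries (10.2 and 9.90).

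Of 30 further genes listed for the BCL2 family and the mitochondrial death pathway, 27 were in the tables and 21 were tested. edgeR called 0 of the 21 in each comparison. In lck-IRF4;p53+/- against thymus 4 had an unadjusted p under 0.05 with lower and 1 with higher values, and the median log2 fold change was -0.41. In lck-IRF4 the numbers were 5 and 0, with a median of -0.68. Over all genes tested, 19.7% and 18.5% had an unadjusted p under 0.05 in these comparisons, so that 5 of 21 in each is near the background. bida, the orthologue of the BH3-only protein Bid, had 105 and 37.9 normalised counts in lck-IRF4;p53+/- and 41.0 and 87.1 in lck-IRF4, against 503 and 257 in lck-mCherry, and all 4 tumor libraries were below the thymus. Its log2 fold change was -2.41 and -2.57 (edgeR adjusted p 0.124 and 0.123, DESeq2 adjusted p 0.0128 and 0.00720).

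casp9, the initiator caspase of the mitochondrial pathway, had 449 and 194 normalised counts in lck-IRF4;p53+/- and 219 and 251 in lck-IRF4, against 1794 and 498 in lck-mCherry (log2 fold change -1.83 and -2.29, edgeR adjusted p 0.192 and 0.138, DESeq2 adjusted p 0.0770 and 0.0179). DESeq2 called bida in both comparisons and casp9 in lck-IRF4, and no other gene of the list, which is 1 gene in lck-IRF4;p53+/- and 2 in lck-IRF4 of 23 with a DESeq2 adjusted p, where it called 9.89% and 9.62% of all genes. bnip3lb, related to a receptor for the removal of mitochondria, had log2 fold changes of -1.13 and -1.02 (edgeR adjusted p 0.190 and 0.240). In the other direction the lowest p belonged to bokb, diabloa and diablob in lck-IRF4;p53+/- and to bokb, diabloa and bcl2l13 in lck-IRF4, with edgeR adjusted p between 0.239 and 0.660. bokb was at 0 and 1.18 normalised counts in lck-mCherry and at most at 15.3 in a tumor library. Between the tumor groups no gene of the list had an unadjusted p under 0.05, and the lowest adjusted p was 0.817, for birc5a.

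The genes whose pattern over the 6 libraries was most like that of mcl1a, among 7808 genes with a mean of at least 10 CPM (counts scaled to library size), were ubl3b, si:dkey-68o6.6 and si:dkeyp-85e10.2, with Pearson's r of log2 CPM of 0.99 each. ubl3b had 681 and 516 normalised counts in lck-IRF4;p53+/- and 691 and 641 in lck-IRF4, against 948 and 1067 in lck-mCherry. Of the members, bcl2l10 had r = 0.85, pmaip1 0.79, bcl2a 0.69, baxa 0.69, bbc3 0.67 and mcl1b -0.32 with mcl1a. These are descriptions over 6 libraries of 3 groups, which share the step between thymus and tumor.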

How the data were processed

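Per the labels, total RNA of 6 zebrafish samples was prepared as strand-specific libraries and sequenced as paired-end reads on a BGISeq500. The submitters' processing notes name GRCz11, STAR 2.5.2a, featureCounts 1.6.1 and DESeq2 1.12.4. The authors deposited a whole-number count per Ensembl transcript for each library, and 2 gene tables, each over 4 libraries, with a mean signal per gene, which is the mean of counts divided by DESeq2 size factors. The tables also hold the authors' fold changes, standard errors, statistics and p-values, which were not used. The strand setting of the counting was not given in the sources used here, and 0 columns of other samples were present.

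No source used here pairs transcripts with genes, so gene counts were recovered from the deposited means. Each mean is a sum of whole counts times 1 step per library, the steps are the smallest values of a table, and all whole-number sets that give both 15-digit means were enumerated. Exactly 1 set existed for 23130 of 23228 genes with a mean above 0 (99.6%), including all 10 rows of the members. The 98 others, all with means of at least 10426 in the table without the p53 mutants, held 40.4% and 40.6% of the summed means of the 2 tables and were left out. Size factors recomputed from the recovered counts differed from those in the steps by at most 0.276%. For 823 genes whose means equal those of 1 transcript, the recovered counts equalled the deposited counts of that transcript in all 6 libraries, but no member was among them. Such a transcript's counts already give both means, so this agreement was nearly fixed in advance and is no separate check. On simulated data the recovery returned no wrong set. A wider tolerance for means under 100 was set after low genes had first given no solution. This recovery was devised after the files were seen; the plan had been to test the transcript table, which became an alternative.

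Counts were tested with edgeR 4.0.16 (glmQLFit and glmQLFTest, TMM, filterByExpr, all 6 libraries) in R 4.3.3, with Benjamini-Hochberg adjustment over 14102 genes and calls at an adjusted p under 0.05. The SE is the log2 fold change divided by the root of F. DESeq2 1.42.0 was an alternative. edgeR's test was checked on simulated data drawn for lck-IRF4 against lck-mCherry, where it called 0 of 66 genes with a log2 change of 1, 9 of 65 with 2, 39 of 64 with 4 and 0 of 13638 with none. All 9 member names are described, the pathway list is named by its 3 lowest p in each direction, and the 3 genes most like mcl1a are given. The members and lists were chosen with earlier results of these data known. Samples were grouped by their labels. Counting error alone limits genes at or under 3 counts a library.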

Additional observations from a re-analysis of the deposited data

Results flagged for a closer look

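bbc3 was singled out because DESeq2, the alternative tool, called it between the tumor groups, while the main test with edgeR did not. DESeq2 gave a log2 fold change of -2.51 for lck-IRF4;p53+/- over lck-IRF4 with an adjusted p of 0.0103, and both lck-IRF4;p53+/- libraries (47.9 and 17.2 normalised counts) lay below both lck-IRF4 libraries (166 and 205). edgeR's test gave the same size with an adjusted p of 0.326, and of 0.0363 without the filter on low counts, so that the call depends on the filter as well as on the tool. Of the summed marker lists, 4 did not overlap between these groups. Such gaps were common among all genes tested. Both lck-IRF4;p53+/- libraries were below both lck-IRF4 libraries in 20.7% of genes and above them in 18.1%. B-cell markers (3 of 5 with recovered counts, pax5 at 0 in 1 library of lck-IRF4;p53+/-) ranged from 18.1 to 78.3 normalised counts in lck-IRF4;p53+/- and from 237 to 302 in lck-IRF4. Muscle markers (3 of 4) ranged from 1.84 to 2.71 and from 5.97 to 7.52. The muscle sums in lck-IRF4;p53+/- did not exceed the level of 3 counts (2.76 and 2.71 normalised counts), where counting error limits them. Stromal markers (4 of 4) ranged from 198 to 717 and from 69.4 to 80.0, and cell-cycle genes (4 of 5) from 15579 to 17786 and from 12052 to 14910. The macrophage sums overlapped between these groups, but their most abundant genes, cd74a and marco, differed in opposite directions. cd74a had 2065 and 2379 normalised counts in lck-IRF4;p53+/- and 5065 and 4085 in lck-IRF4. marco had 1097 and 3350 in lck-IRF4;p53+/- and 288 and 232 in lck-IRF4. csf1ra was also higher in both lck-IRF4;p53+/- libraries, while mpeg1.1 and mfap4 overlapped. The part of all these markers in the value of bbc3 was not tested.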

How the results depend on the processing

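No member row was called by edgeR with DESeq2's size factors, upper-quartile scaling, the 4 libraries compared or the replicate block; upper-quartile scaling moved the median of all genes by 0.15 in lck-IRF4;p53+/- and 0.14 in lck-IRF4 against thymus and turned no member's direction. The same rows and directions were called by edgeR on every gene with a count and by DESeq2 on all 6 libraries.

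With every gene with a count tested, 1604, 1619 and 354 genes were called in lck-IRF4;p53+/- and in lck-IRF4 against thymus and between the tumor groups, in place of 347, 138 and 1. DESeq2 called 1489, 1405 and 285 on 6 libraries and 1337, 1283 and 365 on 4, an alternative chosen after seeing the data, and edgeR on the 4 libraries compared called 419 in lck-IRF4 and 0 between the tumor groups. The replicate block, where the numbers share only a label (correlation of replicate differences between groups 0.22, 0.06 and -0.03), called 0 genes between the tumor groups and gave bcl2l10 a log2 fold change of -0.0103 there. Leaving out 1 library gave 0 to 388, 0 to 404 and 0 to 3 genes, and 0 without either lck-mCherry library in each comparison. Members called were 4, 2 and 1 with every gene tested, the same with DESeq2 on 6 libraries and 3, 2 and 1 with DESeq2 on 4. They were 0 to 1, 0 to 1 and 0 when 1 library was left out.

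With every gene tested the log2 fold changes of called members were -2.34 (mcl1a), -2.75 (bcl2a), -1.67 (bcl2l10) and -3.08 (bbc3) in lck-IRF4;p53+/-, -2.22 (mcl1a) and -1.76 (bcl2l10) in lck-IRF4 and -2.49 (bbc3) between the tumor groups. With DESeq2 on 6 libraries they were -2.35, -2.75, -1.67 and -3.09, then -2.20 and -1.75, then -2.51, and on 4 libraries -2.35 (mcl1a), -2.75 (bcl2a) and -3.09 (bbc3), then -2.20 and -1.76, then -2.48.

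Leaving out 1 library gave mcl1a -3.08 to -1.85 in lck-IRF4;p53+/- and -2.59 to -1.71 in lck-IRF4. The sign turned for mcl1b in lck-IRF4 (-0.47 to 0.53), for bcl2l11 in lck-IRF4;p53+/- (-4.30 to 2.44) and lck-IRF4 (-4.48 to 1.45), for the second baxa row in lck-IRF4;p53+/- (-0.94 to 0.14), and between the tumor groups for mcl1a (-0.84 to 0.35), mcl1b (-0.14 to 0.86), bcl2a (-1.24 to 0.42), bcl2l1 (-0.90 to 0.30), bcl2l10 (-0.40 to 0.47), the second baxa row (-0.30 to 0.76), bcl2l11 (-1.23 to 2.42) and pmaip1 (-1.003 to 0.40). The cause of these changes was not tested, and a group left with 1 library is assumed to vary like the others. The transcript table as deposited and tolerances 10 times wider and tighter for ties of transcripts (823 each) left their counts within 1.5 times. The most abundant transcript of a gene was not run, since no source used here pairs transcripts with genes.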

Other observations

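The thymus libraries differed from each other in several of the genes described here. Besides bcl2a, bcl2l1 and bcl2l11, the BH3-only gene bmf2 had 514 normalised counts in lck-mCherry replicate 1 and 77.9 in replicate 2, and casp9 had 1794 and 498, whereas mcl1a was the lower in replicate 1. The genes in this comparison were picked after their values had been seen.

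The summed levels of the other marker lists were as follows. T-cell markers (7 of 9 with recovered counts) ranged from 19919 to 36191 in lck-IRF4;p53+/-, from 28660 to 43607 in lck-IRF4 and from 29393 to 36843 in lck-mCherry. B-cell markers (3 of 5) ranged from 18.1 to 78.3, from 237 to 302 and from 64.8 to 103 in these groups, macrophage markers (5 of 5) from 3234 to 5781, from 4379 to 5420 and from 3624 to 6649, and granulocyte markers (5 of 5) from 4057 to 6306, from 3737 to 6221 and from 8800 to 10707, where srgn makes up most of the sum. Epithelial markers (5 of 5) ranged from 1109 to 2050, from 296 to 2916 and from 269 to 298, stromal markers (4 of 4) from 198 to 717, from 69.4 to 80.0 and from 33.5 to 74.3, endothelial markers (4 of 4) from 60.8 to 114, from 81.9 to 109 and from 51.9 to 66.1, and muscle markers (3 of 4) did not exceed 18.9 in any library. Cell-cycle genes (4 of 5) ranged from 15579 to 17786, from 12052 to 14910 and from 14888 to 23198. The macrophage sum is made up mostly of cd74a and marco, which differed in opposite directions between the tumor groups.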
